A study of Homo sapiens with 18 samples.

Results

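The response of TPC1 cells to an siRNA against Dicer1 was examined as the comparison of 3 libraries transfected with that siRNA (siDicer) with 3 libraries transfected with a negative control siRNA (NC), which are 6 of the 18 libraries of the series. TPC1 is an established human cell line from a papillary thyroid carcinoma, and neither group carried the CRISPR-Cas9 edit of the D11 clone, the Dicer1 (+/-) line that makes up the rest of the series together with non-transfected cells (NT). Each siRNA was given at 5 nM with Lipofectamine RNAiMAX, a lipid reagent, and total RNA was taken on day 4 after transfection. Libraries were grouped by the column name of the expression table, which is the sample description. Titles and descriptions named different groups for 12 of the 18 samples, 4 of these 6 among them. The knockdown was transient and rested on a single siRNA product, so what that siRNA does besides lowering DICER1 cannot be told apart from the loss of DICER1. The labels do not say whether replicates were separate cultures, and p-values therefore measure only the spread between these libraries.

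Dicer is the ribonuclease that cuts hairpin precursors into mature microRNAs (miRNAs), which are then loaded onto Argonaute proteins. A miRNA guides Argonaute to messenger RNAs through its seed, the stretch near its 5′ end that pairs with sites in 3′ UTRs, and the paired transcripts are translated less and degraded faster. An siRNA is loaded onto the same proteins and can also pair through its seed with transcripts other than its target. In papillary thyroid carcinoma, where RET or BRAF signalling is often constitutive, let-7, miR-21, miR-146b and miR-221 are among the miRNAs most studied.

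Levels are normalised read counts, that is, reads per gene scaled to 20 M aligned reads in each library. Depth was 11.3 to 18.6 M reads in NC and 16.9 to 23.2 M in siDicer, so that 1 read was worth 0.861 to 1.77 units. The 10 most abundant genes took 3.54% to 3.76% of the total in NC and 3.88% to 4.07% in siDicer, without overlap, and the part of this in the results was not tested. Mitochondrial genes took 2.67% to 3.07%, with overlapping ranges in the groups. siDicer replicate 2 stood apart from the other siDicer libraries. Its log2 values correlated at 0.972, 0.984 and 0.980 with NC replicates 1, 2 and 3 and at 0.977 and 0.982 with siDicer replicates 1 and 3, which correlated with each other at 0.994. Of 19 thyroid differentiation genes only 8 were measurable, and TSHR, SLC5A5, SLC5A8, NKX2-1 and IYD were at 0 in all 6 libraries, whereas PAX8, a thyroid transcription factor, averaged 10007 in NC and 10304 in siDicer. KRT8 and KRT18, keratins of simple epithelia, averaged 10131 and 5047 in NC. The epithelial genes EPCAM and KRT19 were near 0, with NC means of 0.667 and 3.00.

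DICER1, the targeted gene (minus strand, chr14:95086228-95158010, GRCh38), was checked first. Its normalised read count was 2492, 1901 and 2366 in NC replicates 1 to 3 and 255, 395 and 246 in siDicer. All siDicer libraries lay below all NC libraries, and siDicer replicate 2 held the most DICER1 of its group. The siDicer mean was 13.3% of the NC mean (299 ± 83.5 against 2253 ± 311, SD, n = 3 each), which is -2.94 on the log2 scale (SE 0.20; limma adjusted p = 0.00300). Leaving out any library kept the change between -3.15 and -2.81 and the gene called. The NT libraries, which received no siRNA, held 1582, 1510 and 1397, below every NC library, but NC against NT was not called (log2 difference 0.58, limma adjusted p = 0.133).

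**Figure D1:**
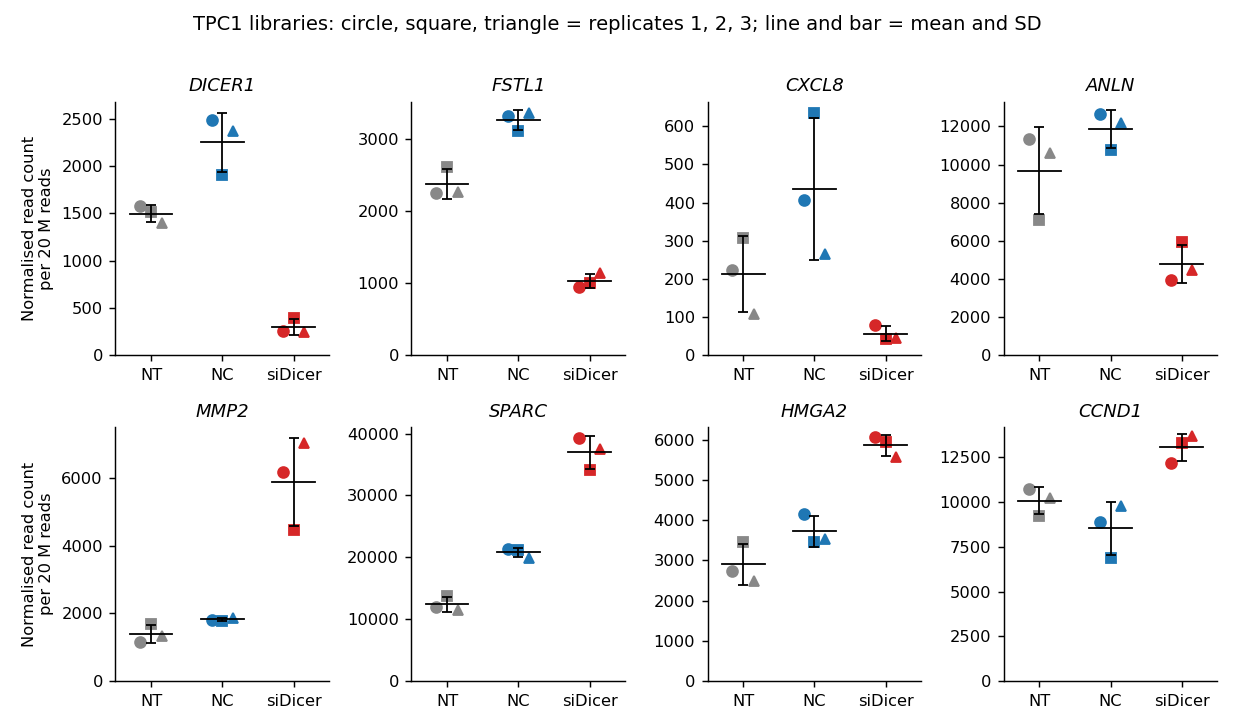
Normalised read count per 20 M reads (y axis, from 0) of 8 genes in the TPC1 libraries; circle, square and triangle are replicates 1, 2 and 3, and lines and bars are the mean and SD of each group of 3. DICER1, FSTL1, CXCL8 and ANLN lie lower in every siDicer library than in every NC library, and MMP2, SPARC, HMGA2 and CCND1 lie higher.

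Of 17923 genes tested, 509 were higher in siDicer (2.84%) and 553 lower (3.09%), 5.93% in all, calls being genes that pass both an adjusted p of 0.05 by limma and a 1.5-fold change. The changes were mostly small. The median fold change was 1.78 among higher and 1.81 among lower genes, 144 and 196 genes passed 2-fold, and 23 and 6 passed 4-fold. All 1062 called genes had groups without overlap, as had 33.3% of all genes tested. With the replicate number as a block in the model, 916 genes were higher (5.11%) and 1058 lower (5.9%), 11% together, and these included each of the 1062. Without siDicer replicate 2 the counts were 899 and 1165. They fell to 166 and 118 without NC replicate 1, to 136 and 80 without NC replicate 3, to 173 and 180 without siDicer replicate 1, and to 109 and 87 without siDicer replicate 3. Of the 1062 calls, 160 (15.1%) were made in each of the 6 fits that left out a library. Those 6 fits had no replicate block, and such fits with the block were not run. Protein-coding genes were called at 6.76% (422 higher and 468 lower of 13166) and long noncoding RNAs at 4.17% (66 and 63 of 3097).

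**Figure D2:**
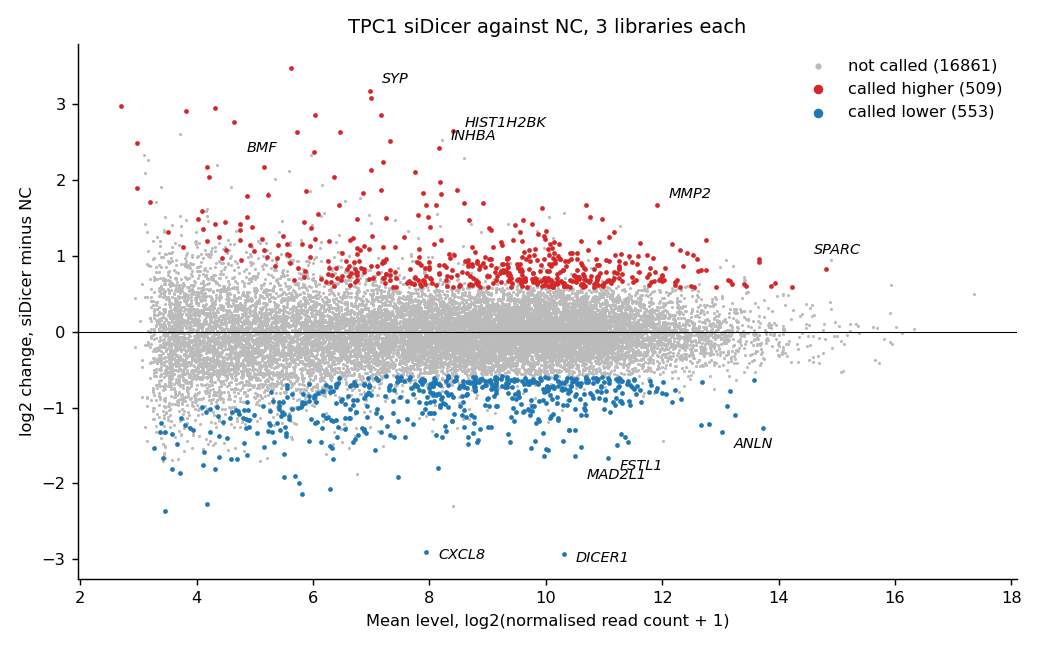
Change (y axis, log2 siDicer minus NC) against mean level (x axis, log2 of the normalised read count plus 1) for all 17923 genes tested, with the 509 called higher in red, the 553 called lower in blue and the others in grey. DICER1 and CXCL8 sit lowest among abundant genes, and most called genes lie within 2-fold of no change.

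The largest rise, taking genes that average 100 or more in either group, was that of SYP (synaptophysin, a protein of synaptic and secretory vesicles), which stood at 27, 29 and 17 in NC and 279, 179 and 220 in siDicer. It was higher by 3.17 on the log2 scale (SE 0.26; limma adjusted p = 0.00300). NTM, which encodes the cell adhesion protein neurotrimin, went from 45, 22 and 38 to 285, 256 and 216 (2.86, SE 0.27, limma adjusted p = 0.00371). Both genes were low in NC and higher in each siDicer library, without overlap. A pair of replication-type histone genes followed. HIST1H2BK went from 123, 58 and 102 to 723, 457 and 557, and HIST1H4I from 59, 37 and 45 to 336, 221 and 259. Histone messages of this kind normally end in a stem-loop and not in a poly(A) tail, and the libraries were selected for poly(A). INHBA, the activin A subunit, went from 98, 39 and 125 to 564, 194 and 704, and F2RL1, the protease-activated receptor PAR2, from 16, 18 and 35 to 262, 75 and 357. In INHBA and F2RL1 siDicer replicate 2 was the lowest of its group, as it was for FAM43A, GOLGA7B and TMEM198, which were also among the 10 largest rises. NC replicate 2 was also the lowest of its group in INHBA and FAM43A, and was not in F2RL1, GOLGA7B and TMEM198. Calls of F2RL1 and TMEM198 were lost without NC replicate 1, NC replicate 3, siDicer replicate 1 or siDicer replicate 3 (limma adjusted p up to 0.0870 and 0.110), and those of INHBA and FAM43A also without NC replicate 2 (up to 0.136 for both). Calls of F2RL1, INHBA and FAM43A were also not made by voom on the recovered reads. With all 6 libraries and the replicate block, the limma adjusted p was 0.000286 for F2RL1, 0.00388 for TMEM198, 2.65e-05 for INHBA and 0.000527 for FAM43A. AL356234.2, a long noncoding RNA, went from 27, 8 and 14 to 126, 91 and 123, and its call was lost without NC replicate 3 or siDicer replicate 3 (up to 0.0563).

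After DICER1, the largest fall was that of CXCL8 (interleukin-8, a chemokine that attracts neutrophils), with 407, 635 and 264 in NC and 79, 43 and 46 in siDicer. The change was -2.90 (SE 0.35, limma adjusted p = 0.00583). FSTL1, a secreted glycoprotein related to follistatin, had the smallest p of all genes. It stood at 3320, 3120 and 3371 in NC and at 953, 1005 and 1136 in siDicer, a difference of -1.67 in log2 terms (SE 0.09; limma adjusted p = 0.00219). TVP23B, a Golgi membrane protein, went from 463, 419 and 441 to 120, 153 and 108. ERLIN2, part of a complex that marks proteins for degradation at the endoplasmic reticulum, went from 1809, 1190 and 1560 to 477, 498 and 464. For these genes the siDicer libraries lay close together, and siDicer replicate 2 did not stand apart. It did for MAD2L1 (2150, 2238 and 2024 against 470, 1199 and 568), which encodes the spindle checkpoint protein MAD2, and for the tetraspanin gene TSPAN1 and for PHEX, a membrane endopeptidase gene. PCOLCE2, which enhances procollagen processing, went from 185, 230 and 175 to 47, 98 and 61. The calls of MAD2L1 and PCOLCE2 were lost without NC replicate 1, NC replicate 3 or siDicer replicate 3 (limma adjusted p up to 0.0950 and 0.0829), that of MAD2L1 also without siDicer replicate 1, and those of TSPAN1 and PHEX without any single library other than siDicer replicate 2 (up to 0.121 and 0.125). AL353751.1, a long noncoding RNA, went from 114, 134 and 118 to 31, 49 and 34.

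Genes known as targets of miRNA families were followed in 4 lists, and the mature miRNAs are shown so that their seeds can be set against the 3′ UTR sites described further on. The sequences are from RefSeq (GRCh38.p14), 5′ to 3′, with the seed (bases 2 to 8) in capitals. Each of these 6 has its own seed, and where a miRNA has several loci the position of one is given.
let-7a-5p (chr9:94175962-94175983, plus strand): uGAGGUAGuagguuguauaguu
miR-21-5p (chr17:59841273-59841294, plus strand): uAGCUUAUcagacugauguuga
miR-17-5p (chr13:91350618-91350640, plus strand): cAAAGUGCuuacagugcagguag
miR-16-5p (chr3:160404754-160404775, plus strand): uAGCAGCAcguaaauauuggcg
miR-29a-3p (chr7:130876748-130876769, minus strand): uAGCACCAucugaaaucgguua
miR-200b-3p (chr1:1167160-1167181, plus strand): uAAUACUGccugguaaugauga

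Of 19 tested let-7 targets, 6 rose (31.6% called, against 2.84% called higher of all genes) and none fell, and the median log2 change was 0.11, against -0.04 over all genes tested. For NC against NT, which shares the NC libraries, the median of the list was 0.23. The risers were HMGA2, IGF2BP3, NR6A1, HIC2, ARID3A and PLAGL2, mostly chromatin or DNA-binding proteins of fetal tissues. HMGA2, an architectural chromatin protein, stood at 4168, 3467 and 3540 in NC and 6073, 5951 and 5570 in siDicer (log2 change 0.66, SE 0.09, limma adjusted p = 0.00856). IGF2BP3, an RNA-binding protein of fetal tissue, went from 2398, 2027 and 2304 to 4043, 2913 and 3764. The transcription factor gene ARID3A changed most, from 213, 321 and 311 to 987, 441 and 844. Each of the 6 genes had every siDicer library above every NC library, as had every gene called higher and 14.5% of all genes tested. The other 13 were not called. They included the GTPase gene NRAS, with a change of -0.50, and the RNA-binding protein gene IGF2BP2, which at 0.45 passed the adjusted p and not the fold, as NRAS did in the other direction. The 6 calls were 0 without NC replicate 3, 1 without NC replicate 1, siDicer replicate 1 or siDicer replicate 3, 2 without NC replicate 2, and 6 without siDicer replicate 2.

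The other target lists had higher medians, and those of miR-21 and of miR-17-92 and miR-15/16 had few calls (8.33% and 5.56%, against 5.93% of all genes). Among 12 miR-21 targets the median was 0.39, and only RHOB, a small GTPase, was called (1293, 664 and 1230 in NC against 3256, 2138 and 3357 in siDicer, log2 change 1.49, SE 0.28, limma adjusted p = 0.0208). With the replicate block, TPM1 and RECK were also called higher and SPRY1 lower (adjusted p = 0.000542, 0.00834 and 0.00368 by limma). BMPR2 and SPRY2 passed the adjusted p but not the fold, at 0.57 and 0.58, and were called under TMM and RLE scaling, which gave 3 calls in this list. Its median for NC against NT was 0.29. Among 18 targets of miR-17-92 and miR-15/16 the median was 0.27, and CCND1 (cyclin D1) was the only call, with 8903, 6888 and 9812 in NC and 12211, 13309 and 13691 in siDicer (0.63, SE 0.13, limma adjusted p = 0.0275). The block added TXNIP and VEGFA to the higher genes. WEE1 and MINK1 rose by less than 1.5-fold, at 0.46 and 0.42. RHOB and CCND1 were not called without NC replicate 1 or 3 or siDicer replicate 1 or 3 (limma adjusted p up to 0.0951 and 0.120), nor CCND1 without NC replicate 2.

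Targets of miR-29 and miR-200 had a median of 0.50 over 15 genes, and 4 rose (26.7%, against 2.84% called higher of all genes). With GC and length trends removed the median was 0.37 and 3 were called. miR-29 is known for collagen and other matrix genes, and miR-200 for ZEB1 and ZEB2, repressors of epithelial genes. SPARC, a matrix glycoprotein, went from 21307, 21148 and 19855 in NC to 39219, 34042 and 37544 in siDicer (log2 change 0.83, SE 0.08, limma adjusted p = 0.00375). SPARC was also the only gene named here that was called in NC against NT, where NT held 11882, 13735 and 11480. COL5A1, a fibrillar collagen chain, went from 572, 555 and 494 to 1480, 1142 and 1367 (1.29, SE 0.12, limma adjusted p = 0.00348). ZEB2 (424, 639 and 496 against 913, 1199 and 968) and the fibrillin gene FBN1 (586, 779 and 731 against 942, 1291 and 1138) were the other risers. The block added COL4A1. Without NC replicate 1, NC replicate 3 or siDicer replicate 3 only 2 of the 4 calls were made, those of SPARC and COL5A1 among them, and without siDicer replicate 2 there were 7.

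Genes of the miRNA pathway other than DICER1 moved little. Among 24 tested the median change was 0.01, and 4.17% were called, against 5.93% of all genes. The only call was ZSWIM8, the substrate receptor of a ubiquitin ligase that degrades Argonaute during target-directed miRNA decay. It went from 1756, 2117 and 1986 to 3099, 3198 and 3022 (log2 change 0.67, SE 0.09, limma adjusted p = 0.00758), and was not called once GC content and length trends were removed. RAN, the GTPase behind nuclear export, passed the adjusted p at -0.35, short of the fold. DROSHA and DGCR8, which cut primary miRNAs, had changes of -0.25 (SE 0.10) and 0.07 (SE 0.08), and AGO2 of -0.17 (SE 0.11), none of which passed. AGO4 was called lower with the block and not in the main test (-0.68, limma adjusted p = 0.00254 against 0.115). Among 24 host transcripts of miRNAs, LINC00472 alone was called (4.17%, against 5.93% of all genes). It went from 256, 202 and 221 to 459, 483 and 432 (1.02, SE 0.12, limma adjusted p = 0.00580). The block added MIR99AHG to the higher and MIR193BHG and MIR210HG to the lower genes.

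The largest coordinated difference lay in mitosis. All 46 tested genes of the list had a lower fitted level in siDicer, with a median log2 change of -0.61. In 42 of them every siDicer library was below every NC library, as was true of 18.8% of all genes tested. Of the 46, 21 were called lower (45.7%, against 3.09% of all genes), and 24 with the replicate block. ANLN, the actin-binding protein anillin of the cleavage furrow, stood at 12666, 10744 and 12161 in NC and 3954, 5920 and 4478 in siDicer (log2 change -1.33, SE 0.15, limma adjusted p = 0.00482). AURKA, a kinase of the spindle poles, went from 2973, 2993 and 3287 to 1428, 1795 and 1547 (-0.96, SE 0.10, limma adjusted p = 0.00450). CDC20, which activates the anaphase-promoting complex, went from 5574, 5065 and 5754 to 2874, 3331 and 3061 (-0.82, SE 0.09, limma adjusted p = 0.00450). In all of them siDicer replicate 2 was the highest of its group. The cyclins CCNA2, CCNB1 and CCNB2 fell by 0.78, 0.74 and 0.75 on the log2 scale. So did the kinases PLK1, AURKB and BUB1, by 0.73, 0.66 and 0.72. The kinesins KIF2C, KIF11, KIF14 and KIF23 also fell, by 0.70 to 0.92.

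Library by library, the list's median lay 0.85, 0.31 and 0.71 below the NC mean on the log2 scale in siDicer replicates 1, 2 and 3 and within 0.04 of it in the NC libraries. The 21 calls became 36 without siDicer replicate 2, and 3 to 15 when any other library was left out, while the median stayed between -0.78 and -0.51. MAD2L1, whose level in NC was close to that in NT (2418, 1790 and 2473), had the largest fall among the list's calls. ANLN, AURKA and CDC20 were called in all 6 of these fits. For NC against NT, which shares the NC libraries, the median of the list was 0.04.

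DNA replication genes lay lower too, by less. The 40 tested genes, among them the MCM helicase, the GINS complex and the DNA polymerases, all had a negative log2 change, from -0.89 to -0.18, with a median of -0.42. In 22 of the 40 every siDicer library was below every NC library, as was true of 18.8% of all genes tested. Only 3 passed both thresholds (7.50%, against 3.09% called lower of all genes). RRM2, a subunit of ribonucleotide reductase, fell from 6945, 6138 and 6741 to 2883, 4819 and 3268 (log2 change -0.89, SE 0.18, limma adjusted p = 0.0241). ORC1, of the origin recognition complex, fell from 912, 750 and 899 to 478, 579 and 486 (-0.73, SE 0.12, limma adjusted p = 0.0152), and TK1, thymidine kinase, by 0.64. RRM1, the other subunit of the reductase, was just under the fold, at -0.58. No gene of this list was called without NC replicate 1, NC replicate 3, siDicer replicate 1 or siDicer replicate 3, and 20 were without siDicer replicate 2, whose own median was only 0.10 below the NC mean against 0.59 and 0.55 in the others.

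G1 regulators showed no common direction, with 10 of 21 changes above 0 and a median of -0.01. CCND1 rose, as given above, and nothing else was called (4.76% called, against 5.93% of all genes). CCNE2 (cyclin E2) averaged 1815 ± 267 in NC and 1133 ± 476 in siDicer (SD, n = 3 each) and E2F2 went from 298, 381 and 394 to 99, 260 and 158. Neither passed in the main test (limma adjusted p = 0.108 and 0.0586) and both did with the block (0.0341 and 0.00201), as did CDKN1C in the other direction. E2F2 was also called lower by voom on the recovered reads, in the fit of all 18 libraries and without siDicer replicate 2. CCNE1 and CDKN1A, the p21 inhibitor, had changes of -0.01 (SE 0.31) and -0.18 (SE 0.10). CCND3 was at -0.38.

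**Figure D3:**
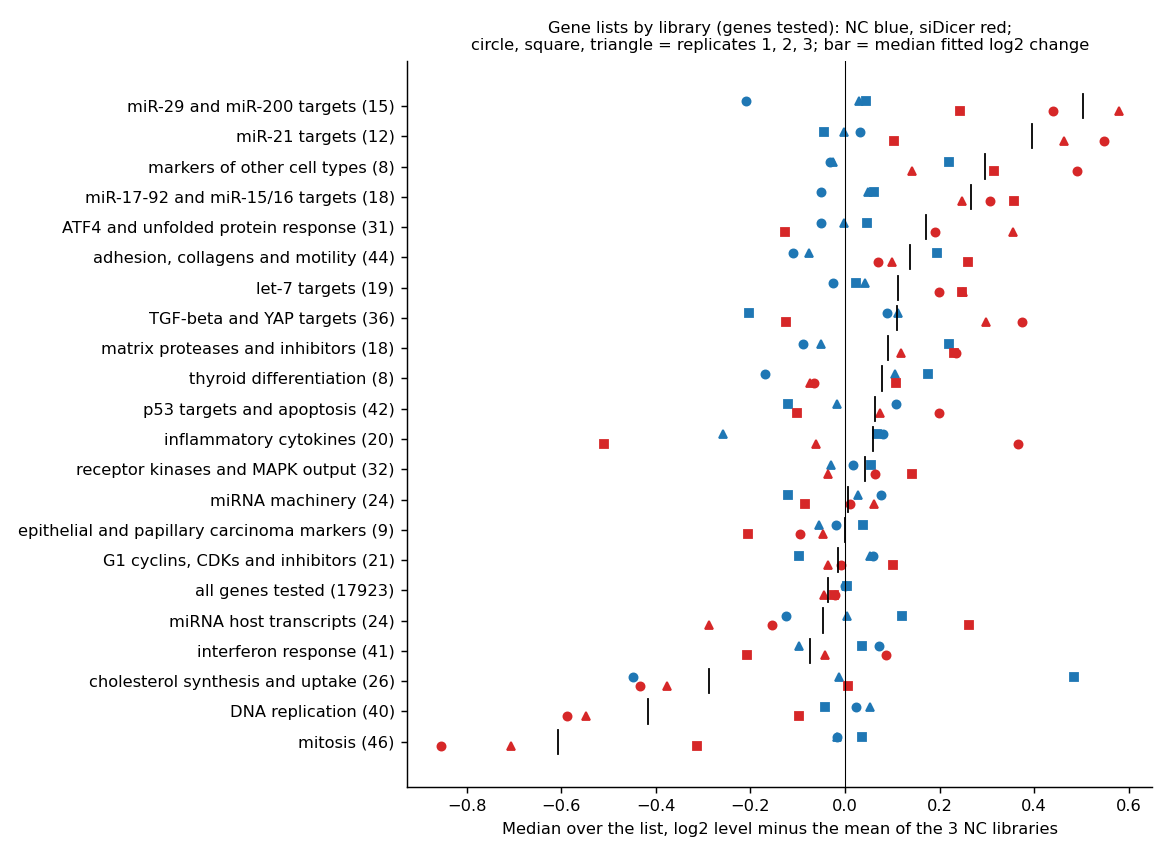
Median over each gene list of the log2 level minus the mean of the 3 NC libraries (x axis) in each NC library (blue) and siDicer library (red), with the number of genes tested in brackets; circle, square and triangle are replicates 1, 2 and 3, and the bar is the median fitted change. Mitosis and DNA replication lie below all other lists in siDicer replicates 1 and 3, and siDicer replicate 2 lies closer to NC in both.

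Matrix proteases and their inhibitors rose in single genes rather than as a list. MMP2, the gelatinase that degrades basement membrane collagen, went from 1809, 1772 and 1871 in NC to 6175, 4459 and 7019 in siDicer (log2 change 1.67, SE 0.16, limma adjusted p = 0.00353). Its inhibitor TIMP2 went from 9138, 7547 and 10341 to 17340, 14905 and 18465 (0.91, SE 0.13, limma adjusted p = 0.00977), a call lost without NC replicate 1 or siDicer replicate 3 (limma adjusted p up to 0.0579). Enzyme and inhibitor were thus higher in the same libraries. These were 2 calls among 18 tested proteases and inhibitors (11.1%, against 5.93% of all genes), whose median was 0.09. PLAU, the urokinase, was at 0.37 and short of the fold. With the block MMP1 was also called higher (1.41) and the inhibitor SLPI lower (-2.29), at limma adjusted p of 0.000772 and 3.39e-05.

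In the list of adhesion, collagen and motility genes, 7 of 44 rose and 1 fell (18.2% called, against 5.93% of all genes), with a median of 0.14. TNC (tenascin C, a matrix glycoprotein of wounds and tumours) went from 2728, 3806 and 3229 to 6235, 6350 and 7898 (log2 change 1.07, SE 0.14, limma adjusted p = 0.00775; 0.0520 without NC replicate 3). The collagen VI chains COL6A1 and COL6A2 rose by 0.96 and 1.01, and SNAI2, a repressor of epithelial genes, by 0.90. The laminin receptor subunit ITGA6 fell from 1985, 2012 and 1766 to 1223, 1145 and 1128 (-0.72, SE 0.08, limma adjusted p = 0.00557), whereas ITGA1, a collagen receptor subunit, rose from 394, 507 and 394 to 770, 688 and 692 (0.74, SE 0.13, limma adjusted p = 0.0165). The 7 calls fell to 0 without NC replicate 3, 1 without NC replicate 1 or siDicer replicate 3, and 2 without siDicer replicate 1, while ITGA6 was called lower in each of these fits. VIM (vimentin) was at -0.28, below the fold.

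For TGF-beta and YAP targets, 2 of 36 rose and 1 fell, with a median of 0.11, and the 8.33% called lay near the 5.93% of all genes. TGFBR3, the co-receptor betaglycan, went from 490, 533 and 544 to 952, 936 and 952 (log2 change 0.86, SE 0.08, limma adjusted p = 0.00419), and PMEPA1, an inhibitor of SMAD signalling, rose by 0.90. AMOTL1 passed the adjusted p at 0.58 and missed the fold. The block raised the counts to 5 higher, with SMAD7, SKIL and LTBP2, and 2 lower, with ID1. The gene that fell in the main test was AXL, a receptor tyrosine kinase. It went from 9539, 6432 and 11481 to 2906, 4573 and 4080 (-1.23, SE 0.24, limma adjusted p = 0.0220), and was not called without NC replicate 1 or 3 or siDicer replicate 1 or 3 (limma adjusted p up to 0.0912). AXL also headed the list of receptor kinases and MAPK output, where EPHB2, SPRY4 and CCND1 rose and AXL and SPRED1 fell among 32 tested (15.6% called, against 5.93% of all genes). EPHB2, an ephrin receptor, went from 181, 173 and 172 to 346, 293 and 361 (0.92, SE 0.12, limma adjusted p = 0.00775). SPRY4, a feedback inhibitor of MAPK signalling, went from 933, 904 and 824 to 1403, 1293 and 1326 (0.60, SE 0.09, limma adjusted p = 0.00959). These 2 calls were lost without NC replicate 3 or siDicer replicate 3 (limma adjusted p up to 0.0557 and 0.0634), and that of SPRY4 also without siDicer replicate 1 and after removal of GC and length trends. RET, the receptor activated by fusion in this line, averaged 1075 ± 61.2 and 1147 ± 68.5 (SD, n = 3 each; log2 change 0.09, limma adjusted p = 0.525). With the block EGFR and PDGFRB were added to the higher genes of this list and ETV4 and PHLDA1 to the lower ones.

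Inflammatory and interferon genes did not move as lists. CXCL8 fell, as given above, and CSF1, the macrophage growth factor, rose from 783, 756 and 816 to 1747, 1295 and 1428 (log2 change 0.91, SE 0.12, limma adjusted p = 0.00756). These were the only calls among 20 cytokine genes (10%, against 5.93% of all genes), whose median for NC against NT was 0.48. CXCL1, a chemokine of the same family as CXCL8, stood at 1534, 2222 and 1213 against 1185, 542 and 755. It was called lower with the block and not in the main test (adjusted p by limma of 0.0146 against 0.0715), as was CXCL2. CXCL1 was also called lower in the fit of all 18 libraries. Among 41 interferon response genes the median was -0.07, and 9.76% were called, against 5.93% of all genes. IFI44 fell from 563, 545 and 511 to 247, 265 and 233 (-1.12, SE 0.10, limma adjusted p = 0.00346). OAS3 (1176, 1133 and 1052 against 817, 681 and 631) and IFIT1 (478, 403 and 377 against 262, 254 and 283), a sensor and an effector of antiviral defence, fell with it. Their calls were lost without NC replicate 1 or 3 or siDicer replicate 3 (limma adjusted p up to 0.0852 and 0.0872), and that of IFIT1 also without siDicer replicate 1 and after removal of GC and length trends. With the block the list had 4 higher and 6 lower genes.

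Of 42 p53 targets and apoptosis genes, BMF, GDF15 and SESN2 rose and none fell, with a median of 0.06 over the list, and the 7.14% called lay near the 5.93% of all genes. BMF, a pro-apoptotic BH3-only protein, was scarce, at 15, 14 and 7 in NC and 39, 78 and 55 in siDicer (log2 change 2.18, SE 0.37, limma adjusted p = 0.0164). GDF15, a stress-induced cytokine, went from 728, 600 and 768 to 1340, 969 and 1356 (0.80, SE 0.16, limma adjusted p = 0.0237). XIAP, an inhibitor of caspases, was at -0.39, short of the fold. Of 31 genes of ATF4 signalling and the unfolded protein response, SESN2, PPP1R15A, DNAJB9 and CEBPB rose (12.9% called), and the block added the amino acid transporter genes SLC7A5 and SLC3A2 and the stress protein gene NUPR1. SESN2, a leucine-sensing inhibitor of mTORC1, went from 942, 813 and 970 to 2918, 1243 and 2507 (1.20, SE 0.29, limma adjusted p = 0.0389), with siDicer replicate 2 nearest to NC. No gene of the ATF4 list, and at most 1 of the p53 list, was called without NC replicate 1 or 3 or siDicer replicate 1 or 3. Without siDicer replicate 2 the ATF4 list had 11 higher genes. Its median was 0.17, and -0.26 for NC against NT.

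Cholesterol synthesis genes had a median of -0.29 and no call among 26. NSDHL, a dehydrogenase of the late pathway, was at -0.39 (SE 0.10, limma adjusted p = 0.0439), short of the fold. The NC libraries themselves were spread widely here, with list medians of -0.45, 0.48 and -0.01 around their mean. Calls with the block included INSIG1 and STARD4, both lower. Among 8 thyroid genes nothing was called in the main test. THRB, a thyroid hormone receptor, stood at 669, 302 and 577 in NC and 1658, 672 and 1669 in siDicer. Its groups just did not overlap, and replicate 2 was lowest in both. THRB was called with the block (log2 change 1.33, limma adjusted p = 6.54e-05) and not in the main test (0.0788). It was also called in the fit of all 18 libraries and without siDicer replicate 2.

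Markers of other cell types were at or near 0 for most of their list. Of 26, 8 were measurable and 7 were at 0 in all 6 libraries, among them CD3E and DCN. Their summed value was 1477, 2292 and 1627 in NC and 2140, 3075 and 2163 in siDicer, most of it from CD68. LUM, a matrix proteoglycan, went from 157, 101 and 132 to 483, 273 and 517, and SNAP25, a synaptic vesicle fusion protein, from 36, 62 and 44 to 113, 298 and 139, both called higher (limma adjusted p = 0.0143 and 0.0250). GFAP fell from 68, 84 and 72 to 45, 47 and 45. Of the 8 measurable markers 37.5% were called, against 5.93% of all genes. The call of LUM was lost without NC replicate 3, siDicer replicate 1 or siDicer replicate 3, that of SNAP25 without NC replicate 1, NC replicate 3 or siDicer replicate 3, and that of GFAP without any library other than siDicer replicate 2 (limma adjusted p up to 0.0719, 0.105 and 0.153). LUM was also not called in the fit of all 18 libraries. DCN, the fibroblast proteoglycan, was at 0, and whether the matrix genes above moved with other cells was not tested beyond these values.

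Whether transcripts with miRNA seed sites moved together was described over 12807 tested genes with an annotated 3′ UTR (GENCODE release 44, sense strand only). Genes with a site pairing with seed bases 2 to 8 were set against genes without it within 4 classes of UTR length, and the differences in median log2 change were averaged. Such differences are descriptions, since genes are not replicates. Levels of miRNAs were not measured, and the classes used here are background. For 24 miRNAs classed as widely expressed, miR-200b-3p among them, the differences were small, from -0.05 to 0.07. Their median was 0.02, and they were above 0 in 17. They were 0.07 for miR-22-3p, miR-125b-5p and miR-24-3p, 0.04 for let-7a-5p (1556 genes with a site), 0.04 for miR-16-5p and miR-29a-3p, -0.01 for miR-17-5p and miR-200b-3p and -0.04 for miR-21-5p. For 4 miRNAs of other tissues they were 0.01 to 0.03. The let-7 site ranked 2229 of 11342 heptamers ranked in the same way. With GC and length trends removed, the differences were 0.040 for miR-22-3p, 0.026 for miR-125b-5p, 0.025 for miR-24-3p and 0.023 for let-7a-5p.

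Both ends of that ranking were held by heptamers that pair with none of the 28 miRNA seeds described above. Among all RefSeq miRNAs, the lowest pairs with the seeds of miR-4760-5p and miR-8061, and the highest with none. The lowest was AATCTAA, with a difference of -0.22, and the 9 lowest heptamers all held the letters ATCTA, whereas the lowest without them stood at -0.10. The highest was AGCAACC, with 0.15. For comparison, 1 in 100 heptamers lay below -0.07 and 1 in 100 above 0.09, these percentiles being those of the whole ranking. Against the NC mean, the difference for AATCTAA was -0.27, -0.16 and -0.26 in siDicer replicates 1, 2 and 3 and 0.03, -0.02 and -0.01 in NC. For AGCAACC it was 0.14 in every siDicer library, 0.14 in replicate 2 included, and -0.01 to 0.01 in NC. siDicer libraries lay apart from NC libraries without overlap for both. The words were, however, chosen after the ranking of these same libraries was seen, and NC values centre near 0 by construction. This separation, and the call shares and signs given next, follow in part from that choice and are no separate support.

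Genes with AATCTAA in the 3′ UTR were called lower at 9.70% (171 of 1762), genes without it at 2.64%. The share was 8.76% with 1 site and 14.1% with 2 or more. The heptamer was present in 36.9% of the genes called lower that have a 3′ UTR and in 13.8% of all such genes. Genes with AGCAACC were called higher at 8.65% (94 of 1087) and those without it at 2.74%, with 8.60% for 1 site and 9.20% for 2 or more (8 of 87). The word was present in 22.7% of the genes called higher against 8.49% of all. Carriers had longer UTRs, with medians of 3502 and 3199 bases against 1529 over all. The differences had the same sign in each of the 4 classes of UTR length, from -0.30 to -0.15 and from 0.10 to 0.23.

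Named genes that carry these words are shown with 8 bases on either side, in the sense of the transcript, with the heptamer in capitals (GRCh38). Those with AATCTAA that were called lower include the following.
FSTL1 (chr3:120394405-120394427, minus strand): caagaaacAATCTAAacaagttt
ANLN (chr7:36452848-36452870, plus strand): ttcctagaAATCTAAttattcag
MAD2L1, first of 2 sites (chr4:120059274-120059296, minus strand): gtgtcttcAATCTAAtggataaa
OAS3, first of 2 sites (chr12:112970385-112970407, plus strand): ccttgccaAATCTAAatagttta
Those with AGCAACC that were called higher include the following.
NTM (chr11:132335215-132335237, plus strand): acaccgacAGCAACCaatcagat
COL5A1 (chr9:134842321-134842343, plus strand): ctcccgagAGCAACCtcgtgacc
SESN2 (chr1:28282260-28282282, plus strand): cgcggagaAGCAACCggcacccc
EPHB2 (chr1:22919457-22919479, plus strand): aggggcccAGCAACCcactcagg
The match was not a rule, since HMGA2, ZEB2 and SNAP25 carry AATCTAA and were called higher, and OAS3 carries both words.

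The coding sequence of DICER1 also holds AATCTAA once, at codon 548 in exon 10 of 27. It is shown as it lies in the target of the knockdown.
DICER1 (chr14:95116548-95116570, minus strand): ctatgttcAATCTAAaggaagag
All 23 annotated DICER1 transcripts of at least 5000 bases, forms of the same gene searched over their full length, held it and none held AGCAACC. Among coding sequences of at least 5000 bases of tested genes, 24.5% held AATCTAA (152 of 620) and 43.7% held AGCAACC (271 of 620). The sequences of the siRNAs are not given in the sources used here, and whether either word pairs with an siRNA was not tested.

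**Figure D4:**
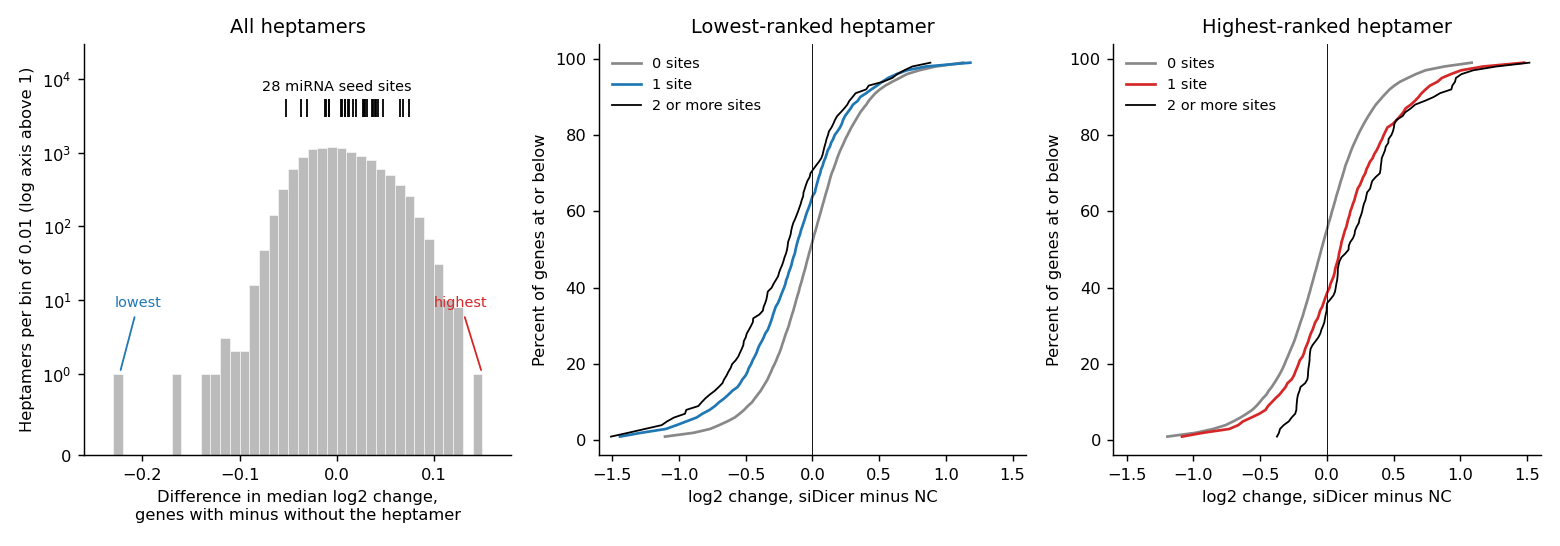
Left, histogram of 11342 heptamers by the difference in median log2 change of genes with and without each in the 3′ UTR (x axis; counts on a log y axis above 1), with ticks for 28 miRNA seed sites. Middle and right, percent of genes (y axis) at or below each log2 change (x axis) by number of sites of the lowest and highest heptamer, whose curves lie left and right of that for genes with 0 sites.

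The words were followed in other comparisons of the series. In D11, siDicer against NC put AATCTAA last of 11307 heptamers (-0.21) and AGCAACC first (0.15). For siDicer against NT in TPC1, AATCTAA was again last, at -0.20, whereas AGCAACC ranked 3582 of 11342, at 0.02. For NC against NT in TPC1, where no siRNA against Dicer1 was present, AATCTAA was at 0.01, ranking 2366 from the top, and AGCAACC at -0.10, next to last of 11345. For siDicer against NT in D11, AATCTAA was last, at -0.19, and AGCAACC ranked 2113 of 11276, at 0.04. For NC against NT in D11, AATCTAA was at 0.03 and AGCAACC at -0.10, next to last of 11290. Within each line these comparisons share libraries, whereas TPC1 and D11 share none. All are set side by side only as values.

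List values were also taken without the genes that carry either word. Of 46 mitosis genes 4 carry AATCTAA and 1 AGCAACC, and among the 41 with neither the median was -0.58, with 17 called lower and all 41 below 0. Among 37 replication genes with neither it was -0.42. In the let-7 list, 12 genes carry neither, with 4 called higher and a median of 0.16. In the miR-29 and miR-200 list the 9 genes with neither had a median of 0.51 and 2 calls, down from 4. Other medians moved more, from 0.27 to 0.42 for miR-17-92 and miR-15/16 targets, from 0.14 to 0.21 for adhesion genes, from 0.09 to 0.17 for proteases, from -0.01 to -0.12 for G1 regulators, from 0.30 to 0.15 for markers of other cell types and from 0.04 to -0.05 for receptor kinases.

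In the D11 clone the same contrast called 703 genes higher (3.93%) and 882 lower (4.93%), 8.86% of 17887. Of the 1062 TPC1 calls, 1043 were tested in D11, and 830 (79.6%) were called there in the same direction, as were 52.9% of the D11 calls in TPC1. The exception in sign among the 1043 was AL132639.2, at -1.29 in TPC1 and 0.24 in D11, which was picked out after its values were seen. Across 17513 genes the log2 changes of the lines correlated (Pearson 0.855, Spearman 0.834, a description over genes of libraries that share no sample). The interaction test over 12 libraries called 0 of 18757 genes (0.0%, smallest limma adjusted p = 1.00), and 0 with the replicate number as a block within each line. Only 129 genes (0.688%) had an unadjusted p under 0.05, so the test was conservative and does not show that the lines responded alike. DICER1 fell by 2.94 in TPC1 and by 2.12 in D11, where NC held 1536, 1433 and 1407 and siDicer 297, 451 and 277, and the interaction of -0.81 (SE 0.28) had a limma adjusted p of 1.00 (0.0138 unadjusted). Mitosis genes had a median of -0.71 in D11 with 31 of the list called lower, and let-7 targets of 0.29 with 5 called higher. The median of the ATF4 list had the opposite sign in D11, at -0.09 against 0.17 in TPC1. MMP2 was at 1.63 and FSTL1 at -1.54 there, next to 1.67 and -1.67 in TPC1. Replicate 2 was again the D11 siDicer library with the most DICER1.

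**Figure D5:**
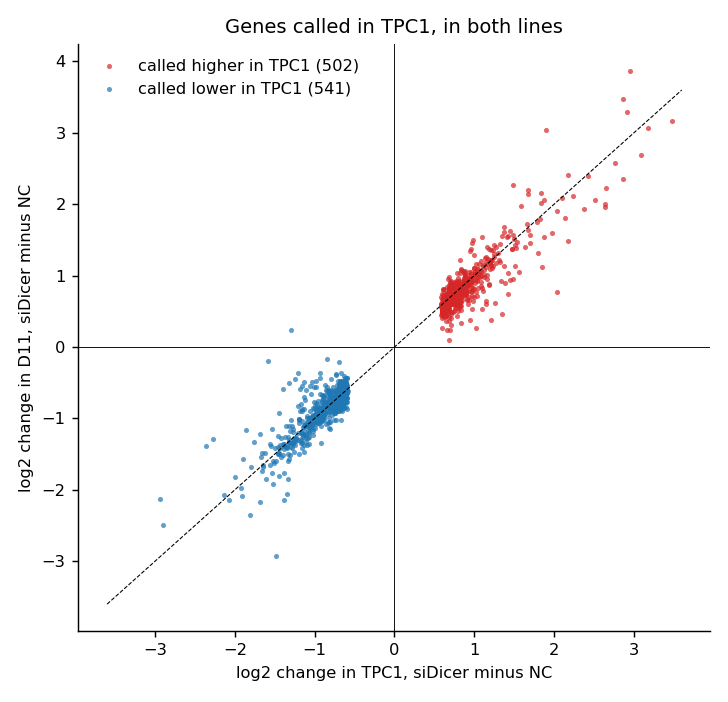
Log2 change in D11 (y axis) against that in TPC1 (x axis) for the 1043 genes called in TPC1 and tested in D11, red called higher and blue called lower in TPC1; the dashed line marks equal changes. All but 1 of the points have the same sign in both lines.

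NC and NT differ in the control siRNA and the lipid transfection together. NC against NT in TPC1 called 6 genes higher (0.0333%) and 14 lower (0.0777%), 0.111% of 18008. On the log2 scale TNC was 1.11 higher in NC than in NT and CXCL8 1.06 higher, without passing the test (limma adjusted p = 0.154 and 0.401). CXCL8 stood at 224, 306 and 109 in NT, above every siDicer library, whereas HIST1H2BK had 279, 163 and 208 in NT, between NC and siDicer.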

How the data were processed

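Per the study's methods, TruSeq Stranded mRNA libraries were aligned with STAR 2.5.3a to GRCh38 and counted per gene with HTSeq 0.9.1 on Ensembl release 90, and the deposited table holds one column per library. Its values are not counts but scores, made by the authors by scaling each library to 20 M aligned reads and rounding up to whole numbers. Whether counting used strand is not given in the sources used here, so values of overlapping or antisense genes are uncertain, and 51 of 75 named genes overlap another gene. Reads were recovered from the step between values, and in the 4 libraries with a step above 1, 100% of the low values examined equalled a whole number of reads times the step, rounded up, with no tolerance beyond computer rounding.

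Genes reaching 10 in 3 or more of the 6 libraries were tested on log2(value + 1) with limma 3.58.1 (limma-trend, R 4.3.3) and Benjamini-Hochberg adjustment, and all fold changes are on this scale, which understates those of low genes. Calls needed both an adjusted p below 0.05 and a 1.5-fold change. At an unadjusted p under 0.05 there were 5212 genes. A count model had been planned in case the file held counts, and was not used. On simulated data for this comparison (17923 genes), 99% of 100 genes changed 2-fold and 100% of 100 genes changed 4-fold were recovered, with 7 false calls. The simulation gave all genes the same fixed dispersion, had no replicate effect and changed no scarce genes. It therefore checks the code and does not give the power of the comparison in the real libraries. Replicate numbers, taken from the descriptions, paired the samples, since deviations from the group means correlated at 0.459, 0.559 and 0.304 between same-numbered libraries and at -0.479 to 0.180 between others. The block was fitted as an alternative.

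Genes named by rule were DICER1, the 10 largest rises and 10 largest falls among calls without overlap that averaged 100 or more in either group, the 3 members of smallest p in each list, and called members of the marker and host lists. Some members are not reported here. Other list members were named after their values were seen. The members and lists were chosen with earlier results of these data known. 3′ UTRs were the longest annotated of each gene (GENCODE release 44), handled with Python 3.11.15, pandas 2.3.3 and numpy 2.4.6, and plots were drawn with matplotlib 3.10.9. Other alternatives were other scaling factors, pseudocounts and filters, voom on recovered reads, removal of GC and length trends, leaving out each library, and groups taken from the titles.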

Additional observations from a re-analysis of the deposited data

How the results depend on the processing

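The counts of 509 higher and 553 lower genes depended most on the replicate block and on single libraries. The replicate block, which follows the pairing by number, gave 916 and 1058 genes, 865 and 1036 with GC and length trends also removed. Dropping the fold change minimum gave 942 and 1086. Leaving out 1 library, in fits without the block, gave 109 to 899 higher and 80 to 1165 lower genes. Of 55 named calls, 23 were made in all 6 of these fits, and 32 were lost in at least 1. The block changed the call of 3 named genes, E2F2, CXCL1 and THRB, and of the list members given above. TMM and RLE scaling, pseudocounts of 0.1 and 10, both other filters, voom on recovered reads (499 and 602) and the fit of all 18 libraries stayed within 1.5 times of both counts. With groups taken from the titles there were 0 and 0 calls and DICER1 was at -0.16 (limma adjusted p = 0.963). No result turned its direction past the test. DESeq2 was not run, since the table holds no counts.

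List medians ranged over the fits without 1 library from 0.085 to 0.19 for let-7 targets, 0.25 to 0.36 for miR-17-92 and miR-15/16 targets and -0.15 to 0.019 for epithelial and papillary carcinoma markers. Others moved further, several of them through 0. The range was -0.014 to 0.31 for the ATF4 list and -0.020 to 0.30 for TGF-beta and YAP targets. It was -0.49 to -0.062 for cholesterol genes and -0.12 to 0.22 for thyroid genes. Seed site differences were near 0 and moved with the settings. Over the fits without 1 library they ran from 0.018 to 0.036 for let-7a-5p and from -0.017 to -0.0057 for miR-17-5p. With 8mer sites only they were -0.0043 for miR-21-5p, 0.013 for miR-17-5p, 0.063 for miR-29a-3p and 0.041 for miR-200b-3p. Without the split by UTR length they were 0.0028, 0.021, 0.068 and 0.018 for the same miRNAs, -0.12 for AATCTAA and 0.14 for AGCAACC. With GC and length trends removed, with or without the block, they were -0.021 for miR-17-5p, 0.020 for miR-200b-3p and 0.14 for AGCAACC, and with a mean of at least 100 it was 0.16 for AGCAACC. With 3 libraries a group and 1 siRNA product, smaller changes than those called cannot be judged absent.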
